A study of Zea mays with 12 samples.

Results

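GOLDEN2 and GLK1 were described across shoot apices of maize, as 2 genes of the 39324 in the deposited gene table. They were taken by gene model ID, Zm00001d039260 for golden2 and Zm00001d044785 for glk1, and both passed the filter on low counts. The table names its IDs as version 4 gene models and does not pair them with gene names, so the names golden2 and glk1 come with the choice of the IDs. No coordinates are given, because the reference table at hand is of another assembly.

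The mutants were 3 samples of apices homozygous for loss-of-function alleles of tml1 and tml2, the TOO MANY LATERALS genes, made by CRISPR/Cas9 editing and segregated away from the transgene. The wild types were 3 samples of siblings that segregated from the same edited material, and all were of inbred line B104. A sample combined the shoot apical meristem, leaf primordia (plastochrons 0 to 5, counted from the youngest) and sheath, dissected after 7 days of germination, and was sequenced in 2 runs. The wording of the labels, 3 individual apices for each genotype, leaves unclear whether a sample is 1 apex, so the p-values measure the spread between these samples only.

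GOLDEN2 and GLK1 are transcription factors of the GARP family that switch on nuclear genes for chlorophyll synthesis and light harvesting. In maize, a C4 grass whose leaves divide photosynthesis between cell types, GOLDEN2 is known for chloroplast development in the bundle sheath that surrounds each vein, and its loss gives pale leaves. GLK1, its close relative, is known for the same role in the mesophyll cells between the veins. The study's interest is vein patterning, and the comparison shows the RNA of a regulator tied to each of these cell types when the TML genes are lost. The samples are bulk tissue, so neither RNA is assigned to a cell type here, and fewer cells of a type and less RNA per cell cannot be told apart.

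Both genes were detected in every sample. Golden2 averaged 0.792-fold and glk1 0.522-fold of the wild-type level in the mutant, with overlap between the genotypes for both. The sample that stood apart was mutant 4: its glk1 was 4.11-fold below the next lowest sample, while its golden2 lay within the range of the other 5 samples. Neither gene passed the test between genotypes, in which 0 of the 22772 genes tested (0%) passed. The genotypes did not overlap for 19.3% of tested genes, so overlap was the more common case.

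Golden2 had 18.2, 24.1 and 19.2 CPM (counts per 1000000 counts of a library, with TMM scaling between libraries) in mutants 2, 3 and 4, against 30.1, 21.8 and 25.8 CPM in wild types 2, 3 and 4. These rest on 545, 681 and 593 counts in the mutants and on 877, 655 and 759 counts in the wild types. The genotypes overlapped, since mutant 3 lay above wild type 3. The mutants averaged 20.5 ± 3.19 CPM and the wild types 25.9 ± 4.14 CPM (SD, n = 3 each), with 1.33-fold between the highest and lowest mutant and 1.38-fold between the highest and lowest wild type. The genotype means thus lay closer together than the highest and lowest wild type.

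Glk1 had 16.0, 18.7 and 3.88 CPM in mutants 2, 3 and 4, against 28.9, 17.6 and 27.3 CPM in wild types 2, 3 and 4. The counts behind these were 478, 527 and 120 in the mutants and 843, 530 and 801 in the wild types. Mutant 3 again lay above wild type 3, so the genotypes overlapped here as well, and wild types 2 and 4 were higher than every mutant. The mutants averaged 12.8 ± 7.88 CPM and the wild types 24.6 ± 6.09 CPM (SD, n = 3 each). The highest mutant was 4.81-fold above the lowest, where the wild types spanned 1.64-fold.

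**Figure D1:**
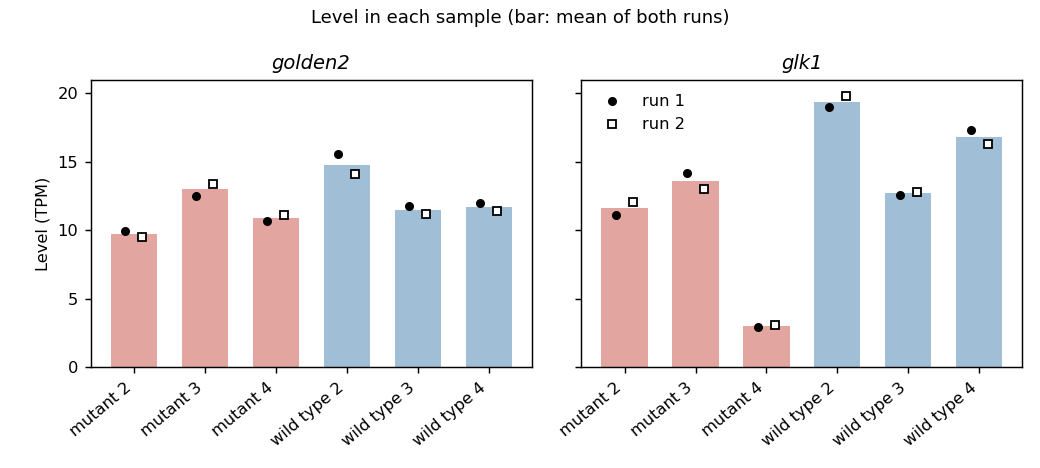
Level of golden2 (left) and glk1 (right) in TPM in each of the 3 mutant (red) and 3 wild-type (blue) samples; bars are the mean of the 2 runs and black points the runs. Golden2 lies between 9.70 and 14.8 TPM in all 6 samples, and glk1 stands at 3.00 TPM in mutant 4 against 11.6 TPM or more in the others.

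Per transcript length, which allows levels of the 2 genes to be set side by side, golden2 was at 9.70, 13.0 and 10.9 TPM (transcripts per 1000000 transcripts) in mutants 2, 3 and 4 and at 14.8, 11.5 and 11.7 TPM in wild types 2, 3 and 4. Glk1 was at 11.6, 13.6 and 3.00 TPM in the mutants and at 19.4, 12.7 and 16.8 TPM in the wild types. By the mean TPM of the 2 runs, glk1 was therefore the more abundant transcript in 5 of the 6 samples and the less abundant in mutant 4. The runs of mutant 3 differed in this order. Golden2 and glk1 were at 12.5 and 14.2 TPM in its run 1, and at 13.4 and 13.0 TPM in its run 2. On this scale golden2 averaged 11.2 ± 1.64 TPM in the mutant and 12.7 ± 1.86 TPM in the wild type, and glk1 averaged 9.39 ± 5.62 TPM in the mutant and 16.3 ± 3.39 TPM in the wild type (SD, n = 3 each).

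Among all listed genes, golden2 ranked above 66.3% to 70.3% of them by TPM in the mutants and above 68.7% to 74.6% in the wild types. Glk1 ranked above 69.3%, 71.1% and 51.8% in mutants 2, 3 and 4 and above 70.2% to 79.1% in the wild types. The drop in mutant 4 thus took glk1 to near the middle of the listed genes, of which 11305 had 0 counts in every sample.

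The ordering of samples was nearly shared. From high to low CPM, golden2 ran through wild type 2, wild type 4, mutant 3, wild type 3, mutant 4 and mutant 2. Glk1 ran through wild type 2, wild type 4, mutant 3, wild type 3, mutant 2 and mutant 4, so the orders differed only in the lowest pair. By counting error alone, the 95% exact Poisson intervals of neighbours in the golden2 order overlapped for every pair but wild type 2 and wild type 4 (28.1 to 32.1 and 24.0 to 27.8 CPM). For glk1, they overlapped between wild types 2 and 4 and among mutant 3, wild type 3 and mutant 2, and the interval of mutant 4, 3.22 to 4.65 CPM, lay apart from all others. Reads carry no molecular identifiers here, so such intervals cover counting error only. In TPM, which was not rescaled between libraries, the golden2 order differed in that mutant 3 came before wild type 4.

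Both runs set mutant 4 apart in glk1, with smaller differences between the runs of other samples. The count ratio of golden2 to glk1 was 1.11 in run 1 and 0.966 in run 2 of wild type 2. For mutant 3 it was 1.20 in run 1 and 1.40 in run 2. In mutant 4, glk1 had 60 estimated counts in each run, and golden2 had 301 and 292. In the 12 comparisons of a gene's share of the first run with its share of the second, the lowest exact binomial p was 0.137, unadjusted, for golden2 in wild type 2. The low glk1 of mutant 4 was thus present in each of its runs.

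The ratio of golden2 to glk1 makes the contrast between the genes plain, because it needs no scaling between libraries. By summed counts it was 1.14, 1.29 and 4.94 in mutants 2, 3 and 4, against 1.04, 1.24 and 0.948 in wild types 2, 3 and 4. Golden2 held 53.3%, 56.4% and 83.2% of the counts of the 2 genes in the mutants, against 51.0%, 55.3% and 48.7% in the wild types. The Clopper-Pearson 95% interval of that share was 80.2% to 85.8% in mutant 4, and the intervals of the other 5 samples lay between 46.1% and 59.2%. Mutant 4 exceeded the next highest ratio, that of mutant 3, by 3.82-fold.

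Per length, the ratio was 0.837, 0.954 and 3.63 in mutants 2, 3 and 4, against 0.763, 0.908 and 0.695 in wild types 2, 3 and 4. Outside mutant 4, mutant 2 lay between wild types 2 and 3, and mutant 3 lay just above wild type 3.

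**Figure D2:**
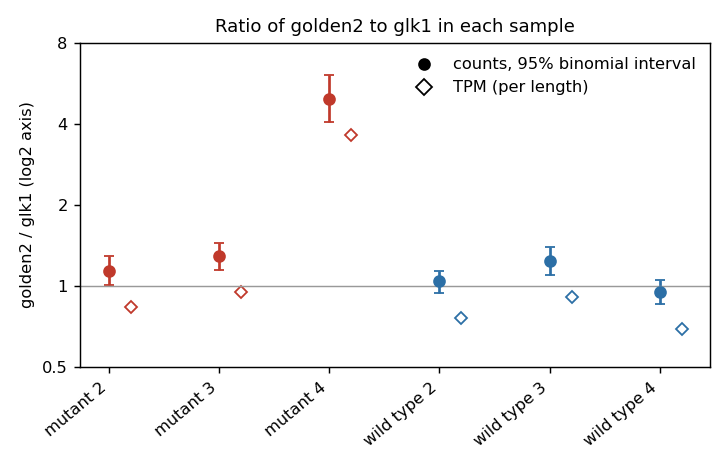
Ratio of golden2 to glk1 in each of the 3 mutant (red) and 3 wild-type (blue) samples, on a log2 axis; filled points are summed counts with 95% binomial intervals and open diamonds are TPM. Mutant 4 stands at 4.94 by counts, and the other 5 samples lie between 0.948 and 1.29.

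On the log2 scale the count ratio averaged 0.95 ± 1.17 in the mutant and 0.09 ± 0.19 in the wild type (SD, n = 3 each). The difference of 0.86 gave p = 0.2 in a two-sided exact permutation test over samples, whose smallest possible p with 3 samples against 3 is 0.1. Without mutant 4 the difference was 0.18, so most of it rests on that sample. In TPM the difference was also 0.86, with an exact permutation p of 0.2.

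Taken as a sum, the 2 genes had 34.2, 42.8 and 23.1 CPM in mutants 2, 3 and 4, against 59.0, 39.4 and 53.1 CPM in wild types 2, 3 and 4. Wild types 2 and 4 were again above all mutants, and wild type 3 lay between mutants 2 and 3. The log2 of the sum differed by −0.62, mutant minus wild type, with a two-sided exact permutation p of 0.2.

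**Figure D3:**
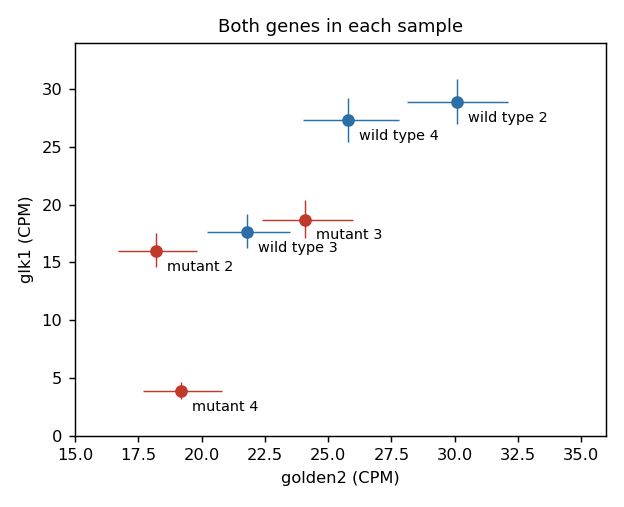
Golden2 (x axis, CPM, from 15) against glk1 (y axis, CPM) in the 3 mutant (red) and 3 wild-type (blue) samples, with 95% exact Poisson intervals. Mutant 4, at 19.2 CPM of golden2 and 3.88 CPM of glk1, lies far below the other samples with similar golden2.

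Over the 6 samples, log2 CPM of golden2 and glk1 had a Pearson r of 0.70 (exact permutation p = 0.1) and a Spearman rho of 0.94 (exact permutation p = 0.017), the only relation between samples that was tested. Leaving out the 2 samples farthest from the median of golden2, wild type 2 and mutant 2, gave r = 0.93 over 4 samples. Without mutant 4, r was 0.91 over 5 samples. The points share their library with both genes, and a genotype alone has too few samples for a value of its own. The permutations ran over all 6 samples without regard to genotype, so a genotype difference that both genes share enters both p-values.

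In edgeR's quasi-likelihood test, golden2 had a log2 fold change, mutant over wild type, of −0.34 (SE 0.19, 95% interval −0.79 to 0.12) with a Benjamini-Hochberg adjusted p of 0.47. Glk1 had −0.94 (SE 0.55, 95% interval −2.26 to 0.38) with an adjusted p of 0.48. The unadjusted p was 0.12 for golden2 and 0.14 for glk1. As mutant over wild type, these intervals span 0.578-fold to 1.08-fold for golden2 and 0.208-fold to 1.31-fold for glk1, so a sizeable loss of glk1 and no loss are both inside them.

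Over the whole table, edgeR called 0 of the 22772 genes tested (0%) at an adjusted p of 0.05, and 2784 (12.2%) had an unadjusted p under 0.05. DESeq2 on the same samples called 658 of the 24166 genes to which it gave an adjusted p (2.72%), and gave adjusted p of 0.49 for golden2 and 0.41 for glk1. The genotypes did not overlap in CPM for 19.3% of tested genes, and for 0 of these 2. The authors' deposited table of 7216 transcripts, as analysed here, lists 0 transcripts of golden2 and 0 of glk1. That table holds only transcripts with an adjusted p of up to 0.05. The share of all transcripts that it lists cannot be read from it, so nothing further is drawn from the absence of these 2 genes.

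**Figure D4:**
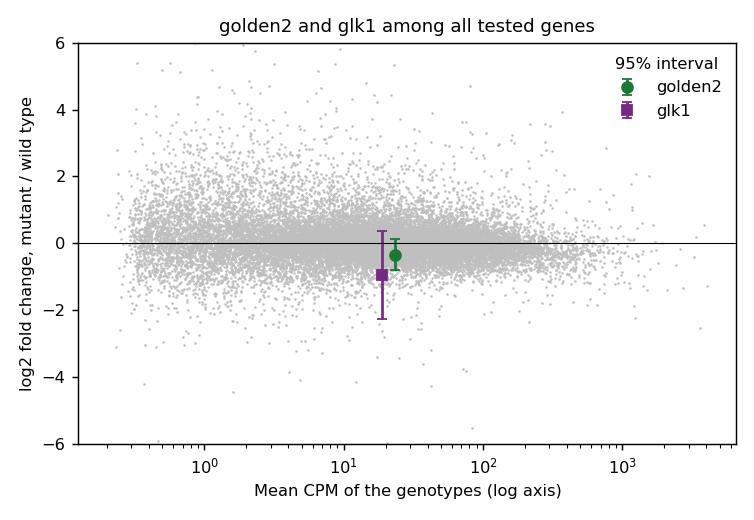
Log2 fold change, mutant over wild type, against mean CPM (log axis) for all 22772 tested genes (grey), with golden2 (green circle) and glk1 (purple square) and their 95% intervals; 16 genes lie beyond the y axis. Both intervals cross 0, and that of glk1, −2.26 to 0.38, is the wider.

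The spread within genotypes was wider for glk1 than for golden2, and that gap rested on mutant 4. The SD of log2 CPM within genotypes was 0.22 for golden2, above that of 31.2% of tested genes, and 0.92 for glk1, above that of 88.4%. Without mutant 4, a check added after the data were seen, it was 0.25 for golden2, above that of 45.4% of tested genes, and 0.33 for glk1, above that of 59.3%. The biological coefficient of variation that edgeR gave was 0.227 for golden2 and 0.484 for glk1. The size of the fold change exceeded that of 54.9% of tested genes for golden2 and of 87.4% for glk1.

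Mutant 4 also stood at one end of the main axis of variation over all tested genes, and that is given here beside the glk1 values. On the first principal component of log2 CPM, which held 46.0% of the variance, mutants 2, 3 and 4 scored −3.2, 26.2 and 115.6 and wild types 2, 3 and 4 scored −84.0, 9.9 and −64.5. The highest glk1 levels were thus in the samples with the lowest scores, and the lowest glk1 level in the sample with the highest score, while the middle 3 samples ran the other way: mutant 2, wild type 3 and mutant 3, in order of rising score, had 16.0, 17.6 and 18.7 CPM. Its part in the glk1 difference was not tested. Library totals ran from 27213052 to 31980536 estimated counts, with 29968419 in mutant 4, where 3 counts correspond to 0.0971 CPM. The part of library totals in the glk1 difference was not tested either.

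A drop as large as that of glk1 was rare in any single sample. Of the 14113 tested genes with a mean of at least 10 CPM, 40 (0.283%), glk1 included, were at least as far below their next lowest sample in mutant 4. The number was 9 (0.0638%) in mutant 2 and 7 (0.0496%) in mutant 3. It was 46 (0.326%), 14 (0.0992%) and 8 (0.0567%) in wild types 2, 3 and 4. The cut was the drop of glk1 itself in mutant 4, so these counts are a description chosen after the data were seen.

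**Figure D5:**
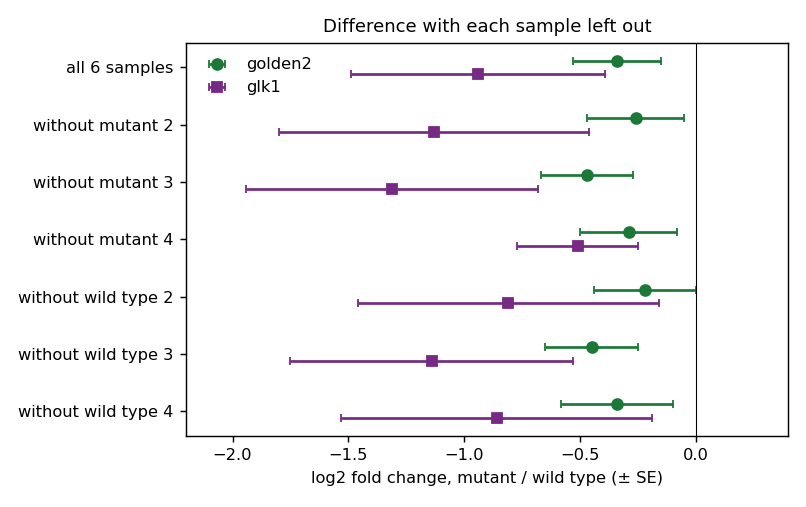
Log2 fold change, mutant over wild type, of golden2 (green circles) and glk1 (purple squares) from edgeR with all 6 samples and with each sample left out; bars are ± SE. Glk1 moves to −0.51 without mutant 4, and both genes stay below 0 in every fit shown.

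Leaving out mutant 4 brought the 2 genes closer together. Glk1 then had a log2 fold change of −0.51 (SE 0.26, adjusted p = 0.73 in edgeR) and golden2 −0.29 (SE 0.21, adjusted p = 0.81 in edgeR). Without wild type 2, the sample with the highest level of both genes, the values were −0.81 for glk1 and −0.22 for golden2.

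The genes whose pattern over the 6 samples was most like each regulator were found among the 14112 other tested genes with a mean of at least 10 CPM, by Pearson r of log2 CPM. For golden2 they were Zm00001d006540 (r = 0.995) and Zm00001d020877 (r = 0.989). Zm00001d006540 had 202, 409 and 213 CPM in mutants 2, 3 and 4, against 718, 309 and 537 CPM in wild types 2, 3 and 4, so it kept the sample order of golden2 with wider steps. For glk1 they were Zm00001d040656 (r = 0.999) and Zm00001d028405 (r = 0.998). Zm00001d040656 had 17.5, 22.0 and 2.59 CPM in mutants 2, 3 and 4, against 43.5, 21.2 and 42.2 CPM in wild types 2, 3 and 4, and was lowest in mutant 4 like glk1.

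An r over 0.9 was reached by 1238 genes (8.77%) with glk1 and by 177 genes (1.25%) with golden2. With 6 samples and the best of many genes chosen, such values are a description of these libraries. Log2 CPM of glk1 was 1.983 in mutant 4 and 4.002 to 4.857 in the other samples. Mutant 4 thus weighs heavily in every r with glk1, and the counts of genes were not repeated without it. The files do not say what the 4 named genes encode.

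The transcripts counted for each gene kept nearly the same average length. For golden2 it was 1990, 1996 and 1999 bases in mutants 2, 3 and 4 and 1991, 1995 and 1974 bases in wild types 2, 3 and 4. For glk1 it was 1463, 1470 and 1471 bases in the mutants and 1464, 1468 and 1448 bases in the wild types. Wild type 4 was lowest for both genes, and its median over all tested genes, 1261 bases, was also the lowest of the 6 samples, where mutant 4 had the highest at 1288 bases. The estimated counts of the 2 genes were exactly whole, with a tolerance of 0, in all 24 values. How reads matching both of these related genes were assigned is not given in the sources at hand.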

How the data were processed

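Estimated counts, TPM and average transcript length per gene and run were deposited by the authors in 12 run columns. A second table deposited by the authors holds mean normalized signal, log2 fold change with its SE, the Wald score and p-values per transcript, per the file headers. The submitters' processing notes name STAR, Salmon and DESeq2, with no version, role or filter. The labels describe strand-specific libraries, paired reads of 150 bases and an RNA integrity number of 9.0. Every column of per-sample values was mapped (0 unused).

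Groups follow the titles. Counts of the 2 runs, called technical replicates in the labels, were summed and rounded, and TPM were averaged. The test was edgeR 4.0.16 (R 4.3.3), quasi-likelihood, two-sided, TMM scaling, expression filter by group, no covariate, Benjamini-Hochberg over 22772 genes, threshold 0.05. SEs and intervals are approximate, from the F statistic. Log2 CPM used a prior count of 2. Alternatives used DESeq2 1.42.0, limma 3.58.1 (pseudocounts on TPM), other scalings and filters, single runs, a block and leave-outs. The tests were checked on simulated data. Changes planted there were larger than those of golden2 and glk1, and every gene had the same spread between samples. The settings of golden2 and glk1 were thus not covered.

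The members and lists were chosen with earlier results of these data known. Named genes were the 2 members and the 2 genes most correlated with each at a mean of at least 10 CPM. Of the 39324 IDs, 0 matched the reference table of 49888 genes (Zm-B73-REFERENCE-NAM-5.0), so the lists of related regulators, chlorophyll synthesis, light harvesting and cell type markers, and the edited genes, were not analysed here. The labelled tissue and genotypes rest on the labels. No sequences were at hand.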

Additional observations from a re-analysis of the deposited data

How the results depend on the processing

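Golden2 and glk1 were lower in the mutant in all 24 alternatives each, at log2 fold changes of −0.48 to −0.17 and −1.33 to −0.51. Of these, 1 passed the threshold: golden2, at −0.34 with an adjusted p of 0.045, when DESeq2 took the 12 run columns as samples, where glk1 had 0.059. Runs of a library vary less than samples, so that fit is no test of the genotypes. In log2(TPM + 1) golden2 was at −0.17, where the median of all genes was 0.13. The log2 ratio was higher in the mutant in all 11 alternatives (0.18 to 1.24 over the leave-outs), and the leave-outs gave −0.47 to −0.22 for golden2 and −1.31 to −0.51 for glk1 in edgeR. Without mutant 4 the ratio's difference was 0.18; the cause was not tested. Genes called by edgeR, 0, became 658 with DESeq2 on the sums, 5993 on the 12 run columns and 1 in limma on log2(TPM + 0.1), and were 0 over the leave-outs (0 to 0). The 658 became 185, 1344 and 309 without wild types 2, 3 and 4 and 1064, 1138 and 428 without mutants 2, 3 and 4. The 2784 at an unadjusted p under 0.05 were 3754 by DESeq2 from summed runs and 9141 from run columns, and over the edgeR leave-outs ranged from 1348 (without wild type 2) to 3639 (without wild type 3); they were 1475 without wild type 4 and 1693 without mutant 4. With a replicate block they were 1790, golden2 had −0.34 (adjusted p = 0.69 in edgeR), glk1 −1.16 (0.65) and the ratio 0.86 (exact sign-flip permutation p = 0.25). Same-numbered samples share only a number: their deviations correlated at 0.22, −0.27 and −0.18, and 2 of 6 samples correlated best with their own number. The DESeq2 leave-outs and the alternatives for the unadjusted count were chosen after the data were seen. Depth limits glk1 in mutant 4 to 99.5 to 143 counts (95% exact Poisson interval).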
